A study of Mus musculus with 4 samples.

Results

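Endothelial genes are those whose products hold the cells lining blood vessels together or let them receive signals from growth factors. The 10 genes described here encode junction and surface proteins (Cdh5, Esam, Pecam1, Cldn5 and Emcn), receptor tyrosine kinases (Kdr, Flt1, Tek and Tie1) and a co-receptor of the transforming growth factor beta family (Eng). They were chosen by their function in endothelium, with the differences in processed signal between the genotypes on these same arrays already known, so their values are a description and carry no test. Their probes were found through the RefSeq transcript identifiers in the array files, 11 probes for 10 genes of 19751 on the array.

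The RNA came from lung alveolar macrophages, which clear particles and surfactant from the airspaces, of wild-type (WT) mice and of mice lacking the transcription repressor Bach2 (Bach2KO). The genotype is the only difference between the groups that the labels give, and they name no age, strain, allele or further treatment. Macrophages of 8 WT mice were pooled, and of 4 Bach2KO mice in the treatment protocol or 3 in the series design text, and were sorted by flow cytometry. The RNA of each genotype was split into 2 parts, which were amplified, labelled with Cy3 and hybridised to an array each, so n is 1 RNA sample per genotype. Standard deviations (SD) therefore cover labelling and hybridisation only, and there is no p-value for the genotype.

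Blood vessel lining is sealed by adherens junctions, built around the cadherin that Cdh5 encodes, and by tight junctions, to which Cldn5 and Esam contribute. Vascular endothelial growth factors act through the kinases encoded by Kdr and Flt1, and angiopoietins through that of Tek, whose close relative Tie1 modulates it. Several of these genes are not restricted to endothelium. Pecam1 is carried by platelets, monocytes and neutrophils, Esam by platelets and some dendritic cells, Flt1 by monocytes and macrophages, Eng by activated macrophages, and Tek by a subset of monocytes. The comparison asks whether the endothelial genes differed together between the macrophage RNA samples.

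By the scanner software's own flag, 27126 to 27918 of 39429 probes per array were well above background, and 0 spots were saturated. Levels are given as log2 signal relative to the 75th percentile of the same array, which ranged from 896 to 1418 scanner units. A gene counted as measured where the 2 arrays of WT or of Bach2KO both flagged it, which held for 15122 genes, and was called higher or lower in Bach2KO if all 4 array pairs differed at least 2-fold in that direction. The only probe of Bach2, the deleted gene, read -6.23 and -6.18 (log2 signal) in WT and -5.03 and -8.00 in Bach2KO, and was well above background on 1 array of each. Where it lies relative to the deletion is unknown here, so it gives no check of the labels. All 16 alveolar macrophage markers were well above background on all 4 arrays, 7 of them lower and 1 higher in Bach2KO. All arrays shared 1 slide with the pair of each genotype side by side, and an effect of place and one of genotype cannot be told apart.

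The endothelial genes did not differ together. Cdh5, Esam and Eng were called higher in Bach2KO, Flt1 was called lower, Pecam1, Cldn5 and Kdr met neither condition, and Emcn, Tek and Tie1 were not well above background on any array. That is 3 of 7 measured genes higher, where 8.76% of all measured genes were, and 1 of 7 lower, where 5.55% were. Nothing is read from those shares, because the genes were listed with these differences known and Esam passed the detection filter through Bach2KO alone. The differences ran from -5.42 (Flt1) to 4.44 (Cdh5), with a median of 0.37 against 0.10 over all measured genes, and both medians were the same with dim genes at their bounds. In bulk RNA, fewer cells of a type and less RNA per cell cannot be told apart.

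**Figure D1:**
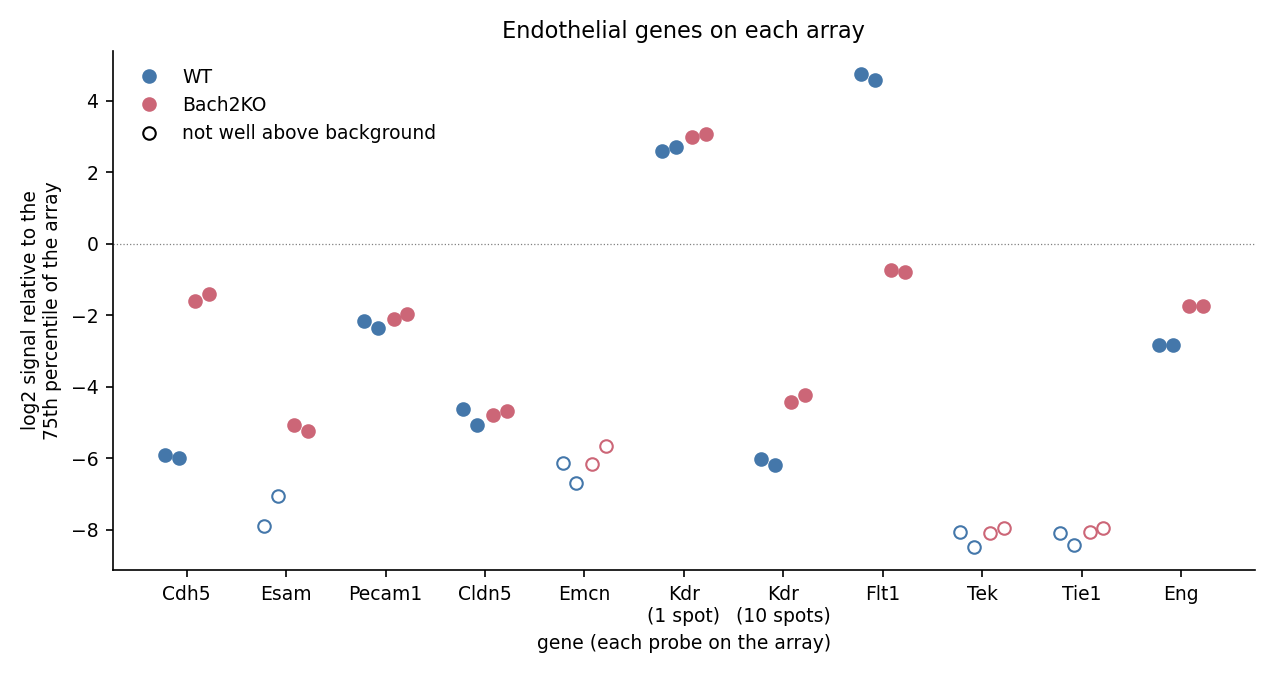
Log2 signal relative to the 75th percentile of the array (vertical axis) for every probe of the 10 endothelial genes, with 1 point per array. Filled points were well above background and open points were not. Cdh5 rises from near -6 in WT to about -1.5 in Bach2KO, Flt1 falls from 4.67 to -0.75, and Tek, Tie1 and Emcn are open on all 4 arrays.

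Among the junction and surface genes, Cdh5 (NM_009868) differed most. Its cadherin is the main adhesion molecule of endothelial adherens junctions. In WT the log2 signals were -5.92 and -5.99, and in Bach2KO they were -1.60 and -1.41. Both WT values were low, both Bach2KO values were high, and the groups did not overlap. The WT mean was -5.95 ± 0.05 and the Bach2KO mean -1.51 ± 0.13 (SD, n = 2 arrays), a 21.8-fold higher signal. In the scanner's own units Cdh5 gave 19.7 ± 4.34 and 22.4 ± 4.15 in WT (± the error that the scanner software reports), and 313 ± 31.4 and 336 ± 33.8 in Bach2KO. The WT signal was thus close to the detection limit although well above background on both arrays. Of all measured genes 158 had a larger difference than Cdh5.

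Esam (NM_027102) encodes an immunoglobulin-like adhesion molecule of tight junctions. Its log2 signals were -7.88 and -7.05 in WT, neither well above background, and -5.06 and -5.23 in Bach2KO, both well above it. Both Bach2KO arrays exceeded both WT arrays. A gene that is dim in a whole genotype has only a lower bound, for which each dim array takes its detection limit (the lowest signal that passed the flag there) or the gene's own signal if that is higher. By this bound Esam was at least 2.16-fold higher. Without WT array 2 the bound was 1.88-fold and the call was lost.

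Pecam1, the platelet and endothelial adhesion molecule that leukocytes use to cross vessel walls, was well above background on all 4 arrays. Its log2 signals were -2.16 and -2.35 in WT and -2.09 and -1.97 in Bach2KO. The groups did not overlap, but the difference of 0.23, with array pairs from 0.07 to 0.38, was far below 2-fold and turned to -0.53 with spike-in scaling. Cldn5, the main claudin of endothelial tight junctions, had log2 signals of -4.62 and -5.06 in WT and -4.80 and -4.67 in Bach2KO. Here the groups overlapped, and the difference of 0.10 was smaller than the WT SD of 0.31 and its sign turned under 3 other scalings, to -0.03 (median centring), -0.09 (quantile) and -0.65 (spike-in). Emcn, a sialomucin of capillary and venous endothelium, had processed signals between 13.2 and 17.7 on the 4 arrays, none well above background, so no difference is given.

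Among the receptor genes, Flt1 (NM_010228) had the largest difference of the 10 genes. It encodes a receptor for vascular endothelial growth factors A and B and placental growth factor. In WT the log2 signals were 4.74 and 4.59, and in Bach2KO they were -0.73 and -0.78. Both WT arrays were bright, both Bach2KO arrays far dimmer, and the groups were separated by at least 5.32 in every array pair. The WT mean of 4.67 ± 0.11 and the Bach2KO mean of -0.75 ± 0.03 (SD, n = 2 arrays) make a 42.8-fold lower signal. In scanner units Flt1 read 31884 ± 3188 and 34199 ± 3420 in WT and 572 ± 57.3 and 523 ± 52.4 in Bach2KO. Of the 15122 measured genes 30 had a more negative difference.

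Kdr, the main signalling receptor for vascular endothelial growth factor A on endothelium, has a pair of probes that gave different answers. The brighter probe, which stands for the gene by the rule used throughout, had log2 signals of 2.61 and 2.72 in WT and 2.99 and 3.07 in Bach2KO. Those groups did not overlap, but the difference of 0.37, which turned to -0.39 with spike-in scaling, was below 2-fold and the probe met neither condition. The other probe, spotted 10 times on each array, had log2 signals of -6.02 and -6.19 in WT and -4.42 and -4.22 in Bach2KO. By that probe Kdr was 3.45-fold higher, a difference of 1.79, with array pairs from 1.60 to 1.97. In WT its spots straddled the detection limit, with 5 of the 9 spots used well above background on each array and spot signals from 11.3 to 28.6 and from 11.1 to 26.3. In Bach2KO all 10 spots were well above background, from 39.8 to 46.7 and from 38.3 to 53.7, so every spot used in Bach2KO exceeded every spot used in WT. The remaining WT spot on each array, at 111 and 125, was marked as an outlier by the scanner software and was left out. Both probes carry the same transcript accession, NM_010612, and their own sequences were not used here.

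**Figure D2:**
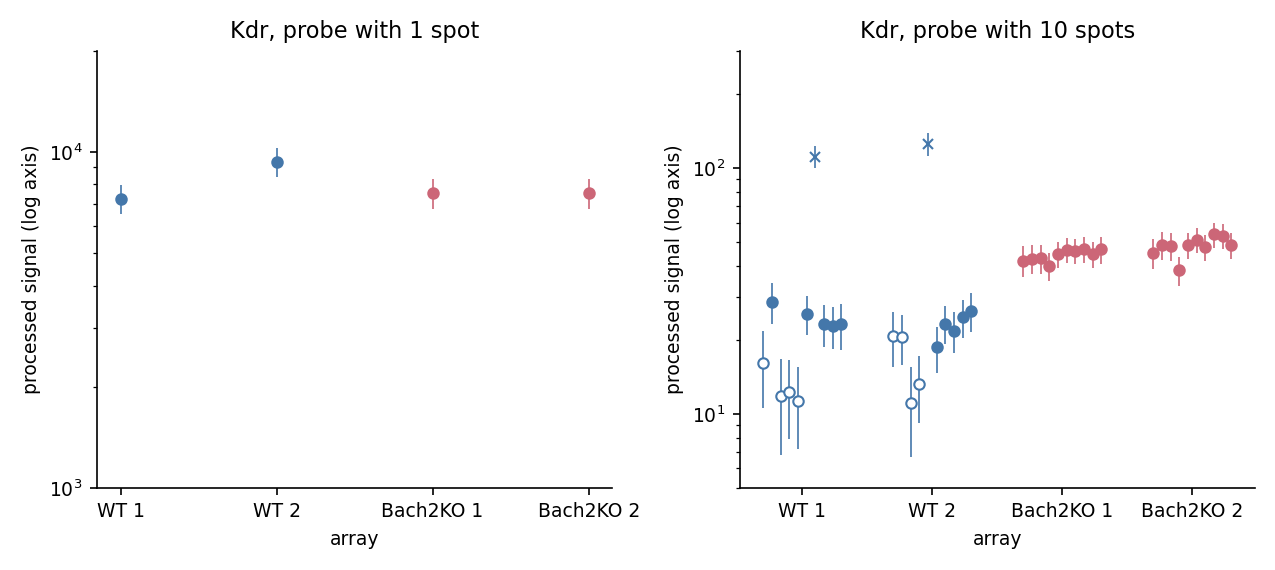
Processed signal (log axis) of each Kdr spot by array, for the probe with 1 spot (left) and the probe with 10 spots (right), with error bars from the scanner software's error model. Open points were not well above background and crosses mark outlier spots that were left out. The left probe lies between 7245 and 9336 on all arrays, while the Bach2KO spots of the right probe, at 38.3 to 53.7, lie above all WT spots except the crosses.

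Tek and Tie1, the angiopoietin receptor gene and its relative, were not detected. The log2 signals of Tek were -8.07 and -8.47 in WT and -8.09 and -7.96 in Bach2KO, and its processed signals of 3.48 to 4.42 were each about equal to their own reported error. Tie1 had log2 signals of -8.08 and -8.43 in WT and -8.05 and -7.95 in Bach2KO, with processed signals of 3.56 to 4.41, again about equal to the error. The 153 negative control spots had median signals of 3.37 to 4.21 per array, close to those of both genes, and no difference between genotypes could be measured.

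Eng (NM_001146350) encodes endoglin, a co-receptor for bone morphogenetic proteins and transforming growth factor beta. It read -2.83 and -2.83 (log2 signal) in WT and -1.74 and -1.73 in Bach2KO. The arrays of a genotype were nearly equal and the groups were clearly apart. The means of -2.83 ± 0.00066 and -1.74 ± 0.0097 (SD, n = 2 arrays) give a 2.13-fold higher signal, just past the 2-fold limit. This call was lost with other scalings, with differences of 0.95 after median centring, 0.99 after quantile normalization, 0.89 after normexp background correction and 0.33 with spike-in scaling.

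The sequence before the transcription start is shown for Flt1, Kdr and Eng, which were called lower, neither and higher, to let the promoters of genes with different outcomes be set side by side. Each line holds the 250 bases before the gene start in RefSeq's GRCm38.p6 annotation, 5′ to 3′ on the gene's strand. Capitals mark AGGAAG or its reverse complement, a longer form of the GGAA core bound by ETS factors of endothelial and myeloid cells.
Flt1, chr5:147726012-147726261, minus strand: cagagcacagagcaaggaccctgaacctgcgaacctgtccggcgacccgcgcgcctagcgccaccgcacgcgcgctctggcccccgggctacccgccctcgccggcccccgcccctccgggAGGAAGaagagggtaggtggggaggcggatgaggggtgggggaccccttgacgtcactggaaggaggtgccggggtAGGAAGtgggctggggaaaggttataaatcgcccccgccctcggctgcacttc
Kdr, chr5:75978456-75978705, minus strand: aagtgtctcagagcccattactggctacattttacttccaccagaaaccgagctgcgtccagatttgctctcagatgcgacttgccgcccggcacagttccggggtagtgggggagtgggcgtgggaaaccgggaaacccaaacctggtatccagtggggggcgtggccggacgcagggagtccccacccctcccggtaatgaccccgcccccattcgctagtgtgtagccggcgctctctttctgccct
Eng, chr2:32646345-32646594, plus strand: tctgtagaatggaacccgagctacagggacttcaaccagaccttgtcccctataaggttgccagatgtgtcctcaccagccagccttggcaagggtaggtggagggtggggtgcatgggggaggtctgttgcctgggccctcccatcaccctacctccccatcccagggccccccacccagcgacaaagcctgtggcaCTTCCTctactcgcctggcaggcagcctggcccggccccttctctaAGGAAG
Such promoters were at hand for 7 of the 10 genes (Cldn5, Emcn, Eng, Flt1, Kdr, Tek and Tie1). The letters AGGAAG, searched on both strands, were in 4 of the 7 (Emcn, Eng, Flt1 and Tie1) and in 29.5% of 32851 promoters of the same length. Flt1, which was lower, and Eng, which was higher, each held 2 copies, and Kdr held 0, although the shorter GGAA occurs in its window. The core TGANTCA, which Bach and AP-1 factors bind, likewise searched on both strands, was in 0 of the 7 windows and in 6.75% of all promoters. These matches describe letters in a short window only.

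**Figure D3:**
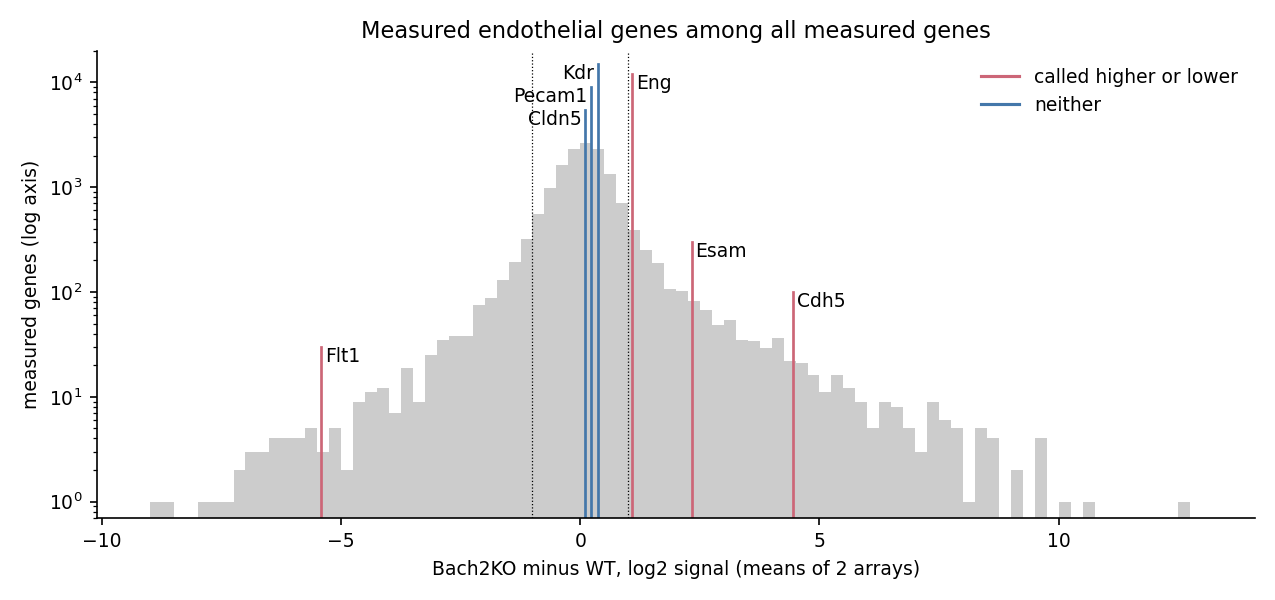
Number of measured genes (log axis) by the difference between Bach2KO and WT in log2 signal, with the 7 measured endothelial genes as vertical lines whose heights carry no value and dotted lines at 2-fold. Flt1 at -5.42 and Cdh5 at 4.44 lie in opposite tails, and Cldn5, Pecam1 and Kdr lie near the centre.

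The level to which arrays are scaled shifts every gene alike. Scaling to the 9 spike-in probes well above background on all arrays put the median difference of all measured genes at -0.66 in place of 0.10 and called 4.15% of genes higher and 21.0% lower, so that 16.5% of the calls were higher in place of 61.2%. Cdh5 was still called higher, with a difference of 3.69, and Flt1 lower, with -6.18, whereas Esam (at least 1.28-fold) and Eng (0.33) were not called. Kdr, Pecam1 and Cldn5 then had differences of -0.39, -0.53 and -0.65 and met neither condition. Under normexp correction, which adds an offset of 50 to each signal and so draws dim genes together, Cdh5 differed by 2.53 and Flt1 by -5.32. The calls of Cdh5 and Flt1 thus held under each of the 5 ways of scaling or correcting, and those of Esam and Eng under the 75th percentile alone.

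**Figure D4:**
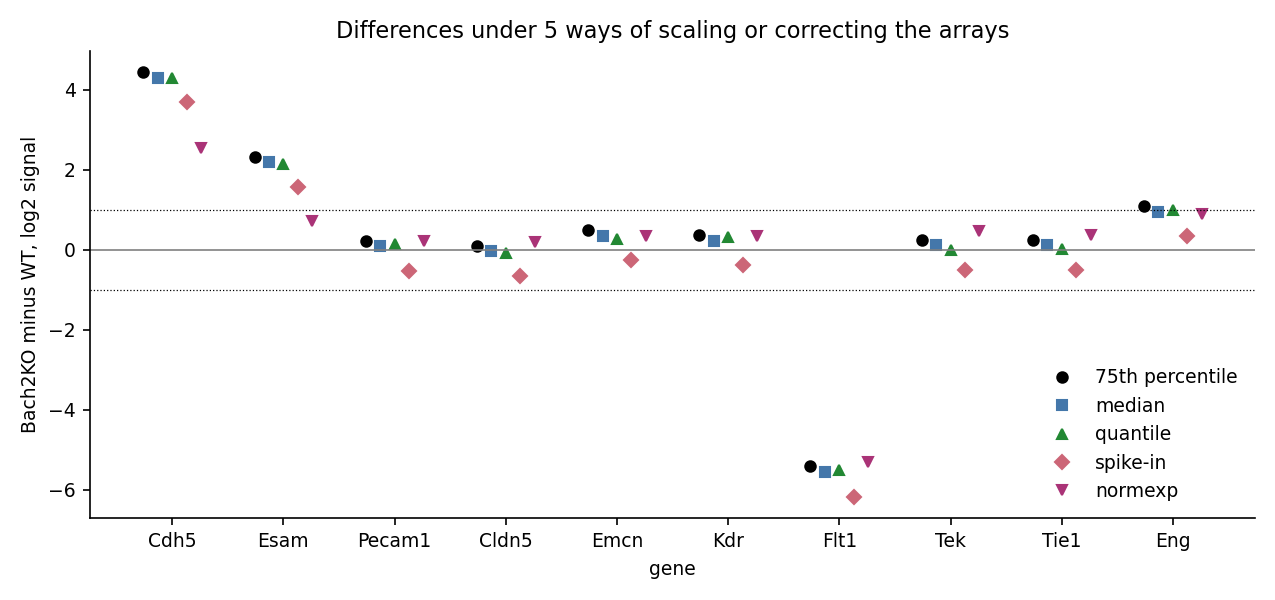
Difference between Bach2KO and WT in log2 signal (vertical axis) for each of the 10 endothelial genes under 5 ways of scaling or correcting the arrays, with dotted lines at 2-fold. Cdh5 stays between 2.53 and 4.44 and Flt1 between -6.18 and -5.32, Eng lies between 0.33 and 1.09 and Esam between 0.72 and 2.33, where the call of Esam rests on its bound and not on this difference. The points of Emcn, Tek and Tie1 come from signals not well above background.

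Other endothelial genes also had calls in both directions. Of 41 further genes of endothelial identity, junctions and signalling, 25 were measured. Calls were higher for 6, lower for 2 and neither for 17, and the median difference was 0.46, also with dim genes at their bounds. With spike-in scaling 2 were higher and 2 lower, and the median was -0.30. Not well above background on any array were 13, among them the endothelial transcription factor genes Erg and Sox18, the stem and endothelial cell sialomucin gene Cd34, the lymphatic growth factor receptor gene Flt4 and the adrenomedullin receptor subunit gene Ramp2.

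The 4 largest of these calls by size of difference were all in the higher direction. Sox7, a transcription factor of endothelial and blood development, had log2 signals of -8.14 and -8.51 in WT, neither well above background, and 0.12 and 0.11 in Bach2KO, and was at least 82.9-fold higher. Procr, the endothelial protein C receptor gene, rose from -0.14 ± 0.05 to 2.38 ± 0.04 (SD, n = 2 arrays), 5.73-fold. Both were called under all 4 other scalings or corrections. Thbd, which encodes the anticoagulant receptor thrombomodulin, was 3.30-fold higher, a call lost with spike-in scaling (0.97). Hspa12b, a heat shock protein gene of endothelium, was 2.84-fold higher, a call lost with spike-in scaling and with normexp.

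The other called genes of the list were named after their values were seen. Vwf, which encodes the clotting protein von Willebrand factor of endothelium and platelets, had log2 signals of 3.12 and 3.22 in WT and 4.58 and 4.55 in Bach2KO, 2.63-fold higher, a call lost with spike-in scaling (0.64). S1pr1, a sphingosine 1-phosphate receptor gene, was 2.26-fold higher and lost its call under each of the 4 other scalings or corrections. Acvrl1, the kinase receptor gene that works with endoglin, was 2.14-fold lower (2.62 ± 0.03 and 1.53 ± 0.05) and Bmx, a Tec family kinase gene, 2.66-fold lower, and both calls held under each of them. Acvrl1 and Eng, which encode partners in 1 receptor complex, therefore had calls in opposite directions at the 75th percentile.

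Ligands and co-receptors of the receptors were measured for 13 of 19 genes, with 3 higher, 0 lower and 10 neither. Vegfb, a ligand of the Flt1 receptor, was 3.82-fold higher (0.05 ± 0.014 and 1.98 ± 0.0046; SD, n = 2 arrays), under spike-in scaling as well. Angpt2, an angiopoietin that binds the Tek receptor, was 3.21-fold higher and Nrp2, a co-receptor for vascular endothelial growth factors, 2.48-fold higher, both calls lost with spike-in scaling (0.93 and 0.55). Placental growth factor (Pgf), whose receptor is Flt1, differed by -0.93 and met neither condition, but was called lower with median centring (-1.07) and spike-in scaling (-1.69). Vegfa was not well above background in WT and at least 1.95-fold higher by the bound, short of the limit. Tgfbr1, a transforming growth factor beta receptor gene, differed by -1.02, with array pairs from -1.11 to -0.94, and was called lower under each of the 4 other scalings or corrections, so the count of 0 lower holds at the 75th percentile only. With spike-in scaling 1 gene of this list was higher and 3 lower.

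Of 16 partners of the junction proteins 11 were measured, 1 higher, 2 lower and 8 neither. The catenin genes Ctnnb1, Ctnna1 and Ctnnd1, whose products bind cadherin tails, differed by 0.44, -0.15 and -0.09 and were not called, and with spike-in scaling Ctnnb1 turned to -0.32. Jup, which encodes plakoglobin, another catenin of cadherin tails, differed by -0.68, with array pairs from -0.81 to -0.55, and was called lower with spike-in scaling only (-1.44). Vcl, which encodes the actin linker vinculin, was 6.28-fold higher, with WT arrays 0.66 apart. The tight junction genes Ocln and F11r were 7.81-fold and 2.10-fold lower. These 3 calls held under each of the 4 other scalings or corrections.

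Markers of other cell types also moved, and their part in the endothelial gene values was not tested. Among monocyte and interstitial macrophage markers 7 of 14 measured were higher and 2 lower. With spike-in scaling 5 were higher and 3 lower, and with quantile normalization and with normexp 5 were higher and 2 lower. The complement genes C1qa and C1qc were 17.4-fold and 14.3-fold higher, whereas the Fc receptor gene Fcgr1 was 12.7-fold lower. The summed level of this list, in units of the array's 75th percentile, was 78.5 and 81.9 in WT and 102 and 101 in Bach2KO. This and all summed levels below were computed with this scaling only. Spike-in scaling lowers every Bach2KO level relative to WT, and whether a sum higher in Bach2KO stays higher with it was not computed.

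Of 7 platelet markers 1 was higher and 0 lower, and scaling to the spike-ins made that 0 and 2. The higher one was the platelet chemokine gene Pf4, 2.29-fold, a call lost with median centring, normexp and spike-in scaling. The platelet sum was 7.29 and 7.26 in WT and 4.95 and 4.91 in Bach2KO. It rests on the receptor gene Clec1b, and without it, an alternative chosen after seeing the data, the sum was 0.852 and 0.884 in WT and 1.67 and 1.65 in Bach2KO, higher in Bach2KO. The platelet receptor genes Itga2b, Gp9, Gp1ba and Gp6 and the chemokine gene Ppbp were not well above background on any array. Mural cell and fibroblast markers were higher for 2 of 9, the growth factor receptor gene Pdgfra (at least 6.49-fold) and the proteoglycan gene Cspg4 (4.77-fold). Their sum was 0.946 and 0.893 in WT and 2.74 and 2.91 in Bach2KO, while Pdgfrb, Col1a1, Rgs5, Des, Kcnj8 and Cnn1 were not well above background on any array.

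Lymphocyte, granulocyte and epithelial markers were mixed. Calls among 10 T cell markers were 5 higher and 1 lower, or 2 and 1 by spike-in scaling and by normexp, with Il7r, a cytokine receptor gene, higher by at least 369.9-fold. Their sum was 65.8 and 65.6 in WT and 31.0 and 30.3 in Bach2KO, which rests on the adhesion receptor gene Cd2, and without it 8.13 and 7.31 in WT and 15.2 and 14.9 in Bach2KO. B cell markers had 1 of 6 higher, Cd79b, a call lost with spike-in scaling and with normexp, with sums of 0.391 and 0.307 in WT and 0.511 and 0.577 in Bach2KO. Of 8 neutrophil markers 3 were higher, among them the calprotectin gene S100a8 (13.9-fold), and 1 lower. Their sum was 46.3 and 45.2 in WT and 55.9 and 55.8 in Bach2KO. It rests mostly on the receptor gene Csf3r, without which it was 4.08 and 4.09 in WT and 21.3 and 23.0 in Bach2KO. Of 11 epithelial markers 3 were higher and 1, the adhesion molecule gene Epcam, was at least 95.6-fold lower, with sums of 4.51 and 4.67 in WT and 7.71 and 7.76 in Bach2KO. None of 8 dendritic cell markers was called, with Batf3 at -0.34 and Siglech at -0.52, which were lower with spike-in scaling. The dendritic sum was 61.8 and 53.4 in WT and 40.7 and 40.7 in Bach2KO. It rests on Siglech, without which it was 2.99 and 2.95 in WT and 2.66 and 2.80 in Bach2KO. The summed level of the 7 measured endothelial genes was 33.3 and 31.1 in WT and 9.49 and 9.99 in Bach2KO. That of the 25 further endothelial genes was 28.7 and 29.0 in WT and 49.1 and 48.7 in Bach2KO. This second sum rests largely on Vwf, whose call was lost with spike-in scaling (0.64). Without Vwf the other 24 gave 19.997 and 19.681 in WT and 25.276 and 25.201 in Bach2KO, a much smaller difference. The sum of the 7 genes rests on Flt1. Without it the other 6 gave 6.51 and 6.97 in WT and 8.89 and 9.40 in Bach2KO. Most of this remainder was the brighter Kdr probe, which was not called. Its difference of 0.37 turned to -0.39 with spike-in scaling, so the remainder describes Kdr more than the 6 genes.

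**Figure D5:**
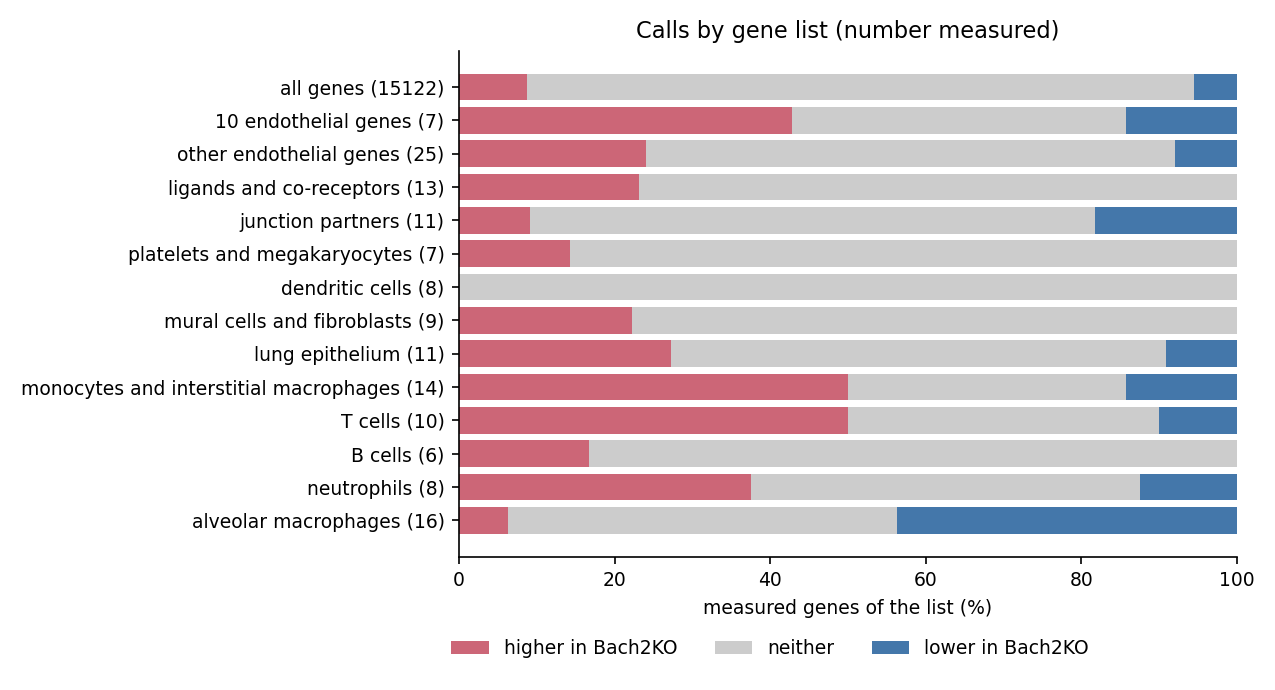
Share of measured genes of each list (horizontal axis, %) that were higher, neither or lower in Bach2KO, with the number measured in parentheses. The 10 endothelial genes have calls in both directions, as do the 25 measured other endothelial genes, and the alveolar macrophage list has mostly lower calls.

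Genes with the pattern most like that of Cdh5 over the 4 arrays were found by Euclidean distance between gene-centred log2 signals among 14572 measured genes. The nearest were Arap2 (distance 0.12), Ephx2 (0.13), Tent5c (0.13), Ptgir (0.17) and Sash1 (0.17), with differences of up to 4.57, against 4.44 for Cdh5. With 2 genotypes and 2 arrays of each, the distance reflects little beyond the size of the difference.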

How the data were processed

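The processed signal used is a linear spot intensity from Agilent's Feature Extraction software, whose version is 10.7.3.1 per the file headers and 9.1 in the submitters' processing notes. A table of log2 values was also deposited. Each column in it equalled the log2 intensity of 1 array less a constant, the log2 of that array's 75th percentile, with column medians of -3.58, -3.67, -3.53 and -3.45, so its scale, centring and direction were settled. The array flags and reported errors are those deposited by the authors in the same files.

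Spots of a probe were averaged as log2 signals, leaving out outlier spots (109 to 136 of 43020 per array), and each array's 75th percentile was subtracted. Symbols came from unversioned accessions in a RefSeq table of GRCm38.p6, which gave 1 symbol to 26055 of 39429 probes, several to 0 and none to 13374. The array design was built on mm9. The brightest measured probe stood for a gene, and a probe was well above background where most of its used spots were. The 2-fold rule is one of size, without a test. It was run on simulated data with array noise only and every gene well above background, so the bounds for dim genes were not covered.

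The endothelial genes and the other 12 lists were chosen with earlier results of these data known. Genes to name were all 10 endothelial genes, up to 4 called genes of each other list by size of difference, or the 2 brightest where none was called, and the 5 nearest to Cdh5. Some of the marker lists' named genes are given as counts only, and Pgf, Vegfa, Tgfbr1, Clec1b, Csf3r, the catenin genes, Vwf, S1pr1, Acvrl1 and Bmx were added after their values were seen. Alternatives were 4 other scalings or corrections (normexp used median spot signals in limma 3.58.1, R 4.3.3), the deposited table, filters, thresholds, probe choices and leaving out each array. The number of arrays limits the precision.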

Additional observations from a re-analysis of the deposited data

How the results depend on the processing

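Cdh5 stayed higher and Flt1 lower under all 18 alternatives in which single differences were recomputed, with ranges of 2.53 to 4.54 and of -6.18 to -5.32. Of the endothelial genes called higher, 1 remained, Cdh5, with median centring, with quantile normalization, with spike-in scaling, with normexp correction and at a 3-fold threshold, and the count of genes called lower was 1 under all of them. Eng was called in 13 and Esam in 11 of the 18. Most of the 18 did not rescale the signals of these genes, so the counts do not measure stability. Under the 4 other scalings or corrections neither gene was called. Leaving out single arrays gave 2 to 3 higher and 1 lower, with Esam lost without WT array 2. Taking Kdr by its probe with 10 spots, an alternative chosen after seeing the data, made 4 higher, and the percentile written in the file headers, likewise chosen later, changed no call of these genes. Over all genes 1324 were higher and 840 lower, against 627 and 3175 with spike-in scaling, 2373 and 1790 at 1.5-fold and 719 and 387 at 3-fold, where the cause of the spike-in shift was not tested. Over all genes, leaving out single arrays gave 1403 to 1578 higher and 905 to 974 lower. No paired analysis was possible because the 2 arrays of a genotype are repeats of 1 RNA sample and the result comes from no test. Comparing only same-numbered arrays as a replicate block gave 3 higher and 1 lower. So did comparing only arrays of crossed numbers, an alternative added since the deviations of same-numbered arrays correlated at -0.14 over genes. Both use a subset of the array pairs of the main rule, so no called gene could lose its call and only new calls could have arisen. Tek and Tie1 lay close to the median of the negative controls, below the detection limit, and Emcn lay near that limit. In WT, Esam lay below the limit, and Cdh5 and the Kdr probe with 10 spots lay near it. The precision of all these levels is limited.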

Other observations

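Genes whose 4 array values lay nearest to those of Flt1, a search chosen after its values were seen, were Nt5e, which encodes the AMP-hydrolysing surface enzyme of adenosine production (distance 0.15), the paired receptor gene Pilra (0.21), the fibroblast growth factor gene Fgf1 (0.21), Pilrb2 (0.26) and the potassium channel gene Kcnk5 (0.32). Their differences lay between -5.59 and -5.21, against -5.42 for Flt1. Pilra and Pilrb2 belong to a family of similar genes, so their probes may share signal.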
